A study of Mus musculus with 9 samples.

Results

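Transcripts of the epidermal cornified envelope were followed on 9 Affymetrix arrays of mouse urogenital sinus. The 44 genes were listed by symbol, chosen with earlier results of these same arrays in view, in which genes of keratinising epidermis read high after bisphenol A, and each gene was represented by the probe set selected on its highest mean log2 value over the 9 arrays. Of the 44, 43 genes had a probe set annotated to that symbol alone, out of 18194 genes measured in this way. Lce1e had no such probe set. The differences between bisphenol A and Control below are therefore a description of how the members were chosen as well as of the tissue.

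The cornified envelope is the tough protein and lipid shell that replaces the plasma membrane of a dying keratinocyte. Keratins fill the cell, transglutaminases cross-link loricrin, involucrin, small proline-rich and late cornified envelope proteins beneath the membrane, lipoxygenases prepare the lipid coat, and proteases later cut the corneodesmosomes so that scales are shed. Many of the structural genes lie side by side in the epidermal differentiation complex. Skin epidermis makes this shell from late gestation, and in adult rodents estrogen is known to bring on cornification of the vaginal epithelium.

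The urogenital sinus is the embryonic chamber that gives rise to the prostate in males and contributes to the vagina in females. The mice were C57BL/6. Control dams received the vehicle, tocopherol-stripped corn oil, and the others received diethylstilbestrol (DES, a synthetic estrogen) at 0.2 μg/kg/day or bisphenol A (BPA, a building block of polycarbonate plastic that acts as a weak estrogen) at 20 μg/kg/day, from embryonic day 13 to 16. Each agent had 1 array at embryonic day 17 (E17), 1 at embryonic day 18 (E18) and 1 on the day of birth (P0). The labels do not give the number of animals, litters or sexes behind an array, so the 3 ages of an agent are its only repeats and p-values measure the spread between these arrays.

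Deposited intensities were unscaled, with trimmed means from 157 (BPA P0) to 277 (DES E17), so signals below are quantile-normalised. Of the 10 measured genes listed for the urogenital sinus, 5 were higher and 5 lower after BPA, with a median difference of -0.02 log2 units, and Shh, a signal of its epithelium, read 1136 to 1928 in Control and 1378 to 1949 with BPA. The BPA P0 array stood apart in another list: the summed signal of 12 gonadal and steroidogenic genes was 4181 there and 472 to 651 on the other 8 arrays. In those genes 11 of 12 were higher on BPA P0 than on Control P0, with Hsd3b1, a steroid dehydrogenase, at 886 against 9.04 and Amh, a Sertoli cell hormone, at 296 against 7.22. The BPA E18 array had the highest summed signal of 11 erythroid genes (2622, against 659.8 to 1611 on the others). The members were high on both of these arrays. The gonadal sum was 512 on BPA E18 and the erythroid sum was 678 on BPA P0. Whether other tissue on these arrays gave the signal of the members was not tested. No agent had a repeat array at the same age, so such tissue could not be told apart from an effect of the agent.

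Promoter sequence is shown for 6 members, because they span both patterns of signal described below. The 100 bases before the annotated transcript start are given 5′ to 3′ on the gene's strand, from RefSeq on the GRCm38.p6 build. Capitals mark a TATAAA or a TGANTCA match, the letters of a TATA box and of an AP-1 site. Loricrin (Lor), the bulk protein of the envelope, is at chr3:92083143-92083242 on the minus strand. Krt10, a keratin of the layers above the basal one, is at chr11:99389365-99389464 on the minus strand. Lce1b, a late cornified envelope protein, is at chr3:92656927-92657026 on the minus strand, and Flg, filaggrin, which bundles keratin, is at chr3:93273446-93273545 on the plus strand. Ivl, involucrin, an early scaffold protein, is at chr3:92573736-92573835 on the minus strand, and Sprr1a, a small proline-rich bridging protein, is at chr3:92485882-92485981 on the minus strand.
Lor: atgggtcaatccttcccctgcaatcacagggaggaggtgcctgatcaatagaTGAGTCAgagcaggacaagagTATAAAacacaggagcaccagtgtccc
Krt10: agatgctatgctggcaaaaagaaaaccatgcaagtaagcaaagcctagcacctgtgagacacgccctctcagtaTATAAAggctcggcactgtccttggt
Lce1b: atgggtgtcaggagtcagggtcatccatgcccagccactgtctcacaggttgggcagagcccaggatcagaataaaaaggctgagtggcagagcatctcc
Flg: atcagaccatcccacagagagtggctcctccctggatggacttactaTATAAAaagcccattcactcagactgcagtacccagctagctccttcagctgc
Ivl: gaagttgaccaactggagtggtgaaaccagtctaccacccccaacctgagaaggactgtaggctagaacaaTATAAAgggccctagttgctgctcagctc
Sprr1a: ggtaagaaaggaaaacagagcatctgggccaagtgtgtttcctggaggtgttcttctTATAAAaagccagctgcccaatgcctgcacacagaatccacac

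In these windows the TATAAA match of Lor began 27 bases before the start site and its TGANTCA match 48 bases before it. The TATAAA match began 26 bases before the start of Krt10, 53 before Flg, 29 before Ivl and 43 before Sprr1a, and Lce1b had no match. Over 250 upstream bases and both strands, TATAAA occurred in 13 of the 34 measured members with a listed promoter (38.2%) and in 12.4% of all 32851 listed promoters. TGANTCA occurred in 9 of 34 (26.5%), against 6.75% of all. CCNCACCC, the letters of a CACCC box bound by Klf factors, occurred in 6 of 34 (17.6%), against 14.9% of all. Members were counted at the first listed promoter of each symbol, and the background over every listed promoter, so the shares are on unlike units. These are letter matches, and binding was not measured. By gene order in RefSeq, 23 of the 43 measured members lay on chromosome 3 within a run of 48 coding genes, so neighbouring members are not independent of each other. Sbsn, Dmkn and Krtdap were neighbours on chromosome 7, Krt2, Krt1 and Krt77 on chromosome 15, and Aloxe3 and Alox12b on chromosome 11.

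Most members differed little between the Control arrays and were highest on the BPA arrays of E18 and P0. The highest of the 9 arrays was BPA P0 for 40 of 43 members, BPA E18 for Aloxe3, and BPA E17 for Ivl and Ly6d. BPA P0 and BPA E18 were the top 2 arrays for 31 members, and 38 members were ordered E17, E18, P0 from low to high within BPA. These orders hold after quantile normalisation, which raised the dim BPA P0 array. In the deposited values BPA P0 was not the highest array for some members, among them Lor (2277, against 3009 on BPA E18), Sprr1a, Tgm1 and Tgm3. In bulk tissue, fewer cells of a type and less RNA per cell cannot be told apart, and the same holds for more.

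**Figure D1:**
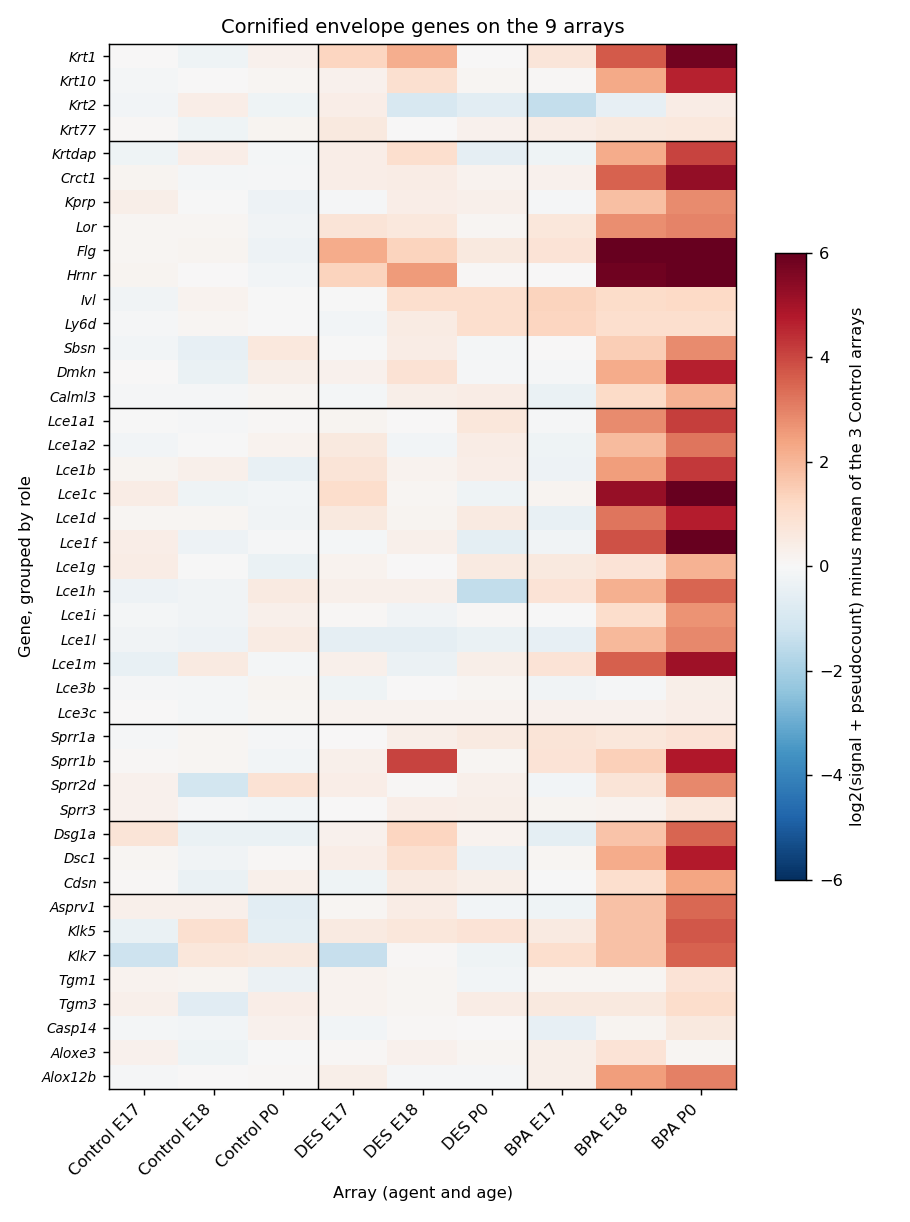
Colour gives log2(signal + pseudocount) on each of the 9 arrays (columns) minus the mean of the 3 Control arrays, for 43 genes (rows) grouped by role, with values past 6 drawn at 6. The BPA E18 and BPA P0 columns hold most of the dark red cells, and after quantile normalisation BPA P0 is the highest array for 40 genes.

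Set against the Control array of the same age, the BPA difference of the members had a median of 0.02 log2 units at E17 (22 higher, 21 lower), 1.85 at E18 (41 higher, 2 lower) and 2.96 at P0 (43 higher). The medians over all 18194 genes were 0.00, 0.01 and 0.03. In the deposited values Krt77, Lce3b, Lce3c, Casp14 and Aloxe3 were lower on BPA P0 than on Control P0. For DES the member medians were 0.19 (28 of 43 higher), 0.42 (34 higher) and 0.15 (27 higher), which lie below the later BPA medians. Because the members were listed for high values after BPA, the order of the agents follows from that choice and is a description. Both sets of differences use the same Control arrays.

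**Figure D2:**
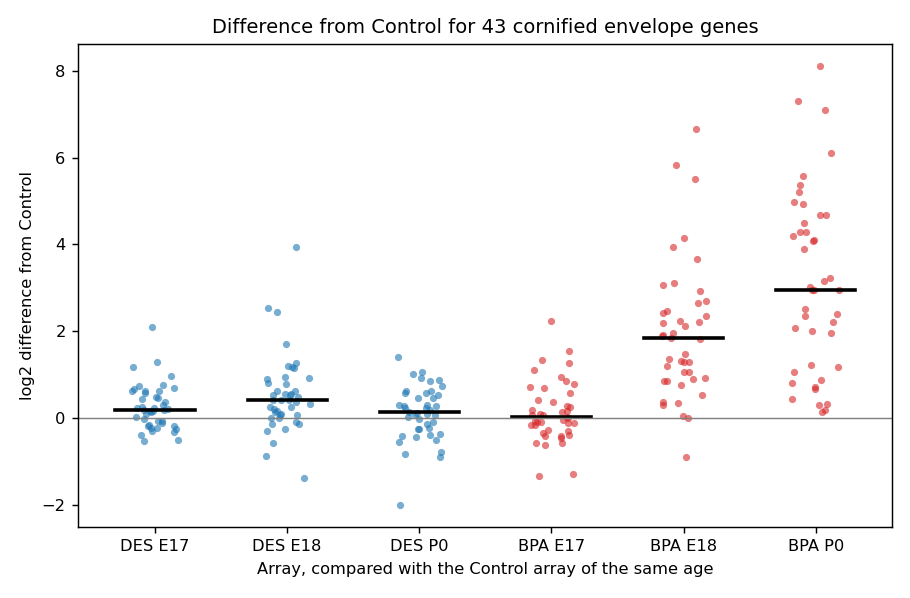
Each point is 1 of 43 genes, plotted as the log2 difference of a DES or BPA array from the Control array of the same age (vertical axis), and black bars are medians. The medians are 0.19, 0.42 and 0.15 for DES and 0.02, 1.85 and 2.96 for BPA at E17, E18 and P0.

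A threshold on these same arrays uses the same signals, so it describes the same pattern again and adds no support. At least 2 times the highest Control array was reached on BPA E17 by 3 of 43 members (1.06% of all genes), on BPA E18 by 25 (1.46%) and on BPA P0 by 32 (2.6%). On DES E17 it was reached by 4 members (0.868% of all genes), on DES E18 by 5 (1.04%) and on DES P0 by 0 (0.918%). The DES genes were Krt1, Flg, Hrnr and Lce1c at E17 and Krt1, Flg, Hrnr, Sprr1b and Dsc1 at E18. The ratio is of plain signals, so dim genes pass it easily. Flg, Hrnr, Lce1c and Dsc1 read 50.2 or less on every DES array, and Lce1c passed at 11.3 against 5.42 or less in Control. All 3 BPA arrays lay above all 3 Control arrays for 17 members (6.05% of all genes) and all 3 DES arrays did so for 5, namely Krt10, Crct1, Flg, Lce1d and Lce3c (6.72% of all genes). Nothing is read from the BPA shares, since the members were listed with that contrast known.

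Among the suprabasal keratins, which replace the basal keratins as a keratinocyte leaves the basal layer, Krt1 and its partner Krt10 followed the late BPA pattern. Values in this and the following sentences are given in the order E17, E18, P0. Krt1 read 90.0, 73.3 and 106 on the Control arrays, 228, 423 and 90.5 on the DES arrays, and 150.1, 1201 and 5294 on the BPA arrays. All 3 BPA arrays were above the Control arrays, and DES was above Control at E17 and E18 but not at P0. Krt10 read 233, 262 and 277 in Control, 303, 509 and 279.7 with DES, and 267, 1253 and 6327 with BPA. The BPA E17 value of Krt10 lay inside the Control range. Krt77, another keratin of differentiated epidermis, ran from 57.2 to 78.3 in Control and from 97.0 to 108 with BPA. Krt2, a keratin of the upper layers, was below the level filter and stayed at 23.0 or less on every array. The filter was set on a gene's mean of log2(signal + 5.46) over the arrays, not on its mean signal. Its cut of 5.54 corresponds to a signal of 41.2.

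The 11 genes grouped as scaffold and precursor genes form a broad group that also holds Ly6d, Calml3, Krtdap, Sbsn and Dmkn. All 11 were higher with BPA than with Control at both E18 and P0. Lor read 476, 469 and 377 in Control, 763, 685 and 469 with DES, and 708, 3064 and 3541 with BPA. Flg read 7.54, 7.89 and 4.17 in Control, 50.2, 24.97 and 12.1 with DES, and 15.6, 1338 and 2655 with BPA. For Flg both the DES and the BPA arrays lay wholly above Control, and the highest DES value was far below the later BPA values. Hrnr, hornerin, a filaggrin relative below the level filter, was at 2.01 or less in Control, reached 33.8 on DES E18, and read 377 and 803 on the later BPA arrays.

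Crct1, a cysteine-rich protein of the complex, read 25.5, 19.8 and 20.3 in Control, 30.9, 31.5 and 25.6 with DES, and 27.4, 313 and 1063 with BPA. Kprp, a keratinocyte proline-rich protein, read 97.0, 74.3 and 59.9 in Control, 72.3, 102 and 95.3 with DES, and 71.4, 281 and 581 with BPA. In both genes the later BPA arrays stood clear of the other 7. The secreted proteins Krtdap, Sbsn and Dmkn, encoded next to each other, shared this pattern. Krtdap read 45.5, 75.4 and 51.3 in Control, 76.3, 119 and 37.6 with DES, and 45.5, 280.0 and 1031 with BPA. Sbsn read 248, 195 and 430.5 in Control, 273, 372 and 249 with DES, and 277, 769 and 2011 with BPA. Dmkn read 90.4, 64.7 and 116 in Control, 107, 162 and 84.3 with DES, and 83.0, 438 and 2357 with BPA. At E17 the BPA values of Sbsn and Dmkn lay inside their Control ranges, and that of Krtdap was marginally below its lowest Control value. Calml3, a calmodulin-like calcium-binding protein, read 38.7, 38.7 and 45.1 in Control, 37.7, 53.8 and 57.2 with DES, and 29.2, 95.7 and 191 with BPA.

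Ivl and Ly6d, a small surface protein of stratified epithelia, departed from that pattern. Ivl read 153, 202 and 173 in Control, 171, 355 and 354 with DES, and 454, 386 and 409.6 with BPA. Ly6d read 324, 364 and 333 in Control, 308, 483 and 697 with DES, and 831, 686 and 699.8 with BPA. Both were above every Control array already on BPA E17, their highest array, and the DES arrays of E18 and P0 lay above Control as well. Sprr1a joined them, with 2089, 2402 and 2099.5 in Control, 2245, 2781 and 3224 with DES, and 3804, 3482 and 3847 with BPA. Over the 3 arrays of different ages, Ivl read 416 ± 34.6 with BPA (mean and SD, n = 3) against 176 ± 24.8 in Control. Ly6d read 739 ± 80.3 with BPA against 340.5 ± 20.7 in Control, so its BPA arrays were the more widely spread. In the deposited values, where the BPA P0 array is dimmer, Ivl read 468, 369.8 and 259 on the BPA arrays and Ly6d 861, 653 and 445, and these also lay above every Control array (203 or less for Ivl, 367 or less for Ly6d).

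**Figure D3:**
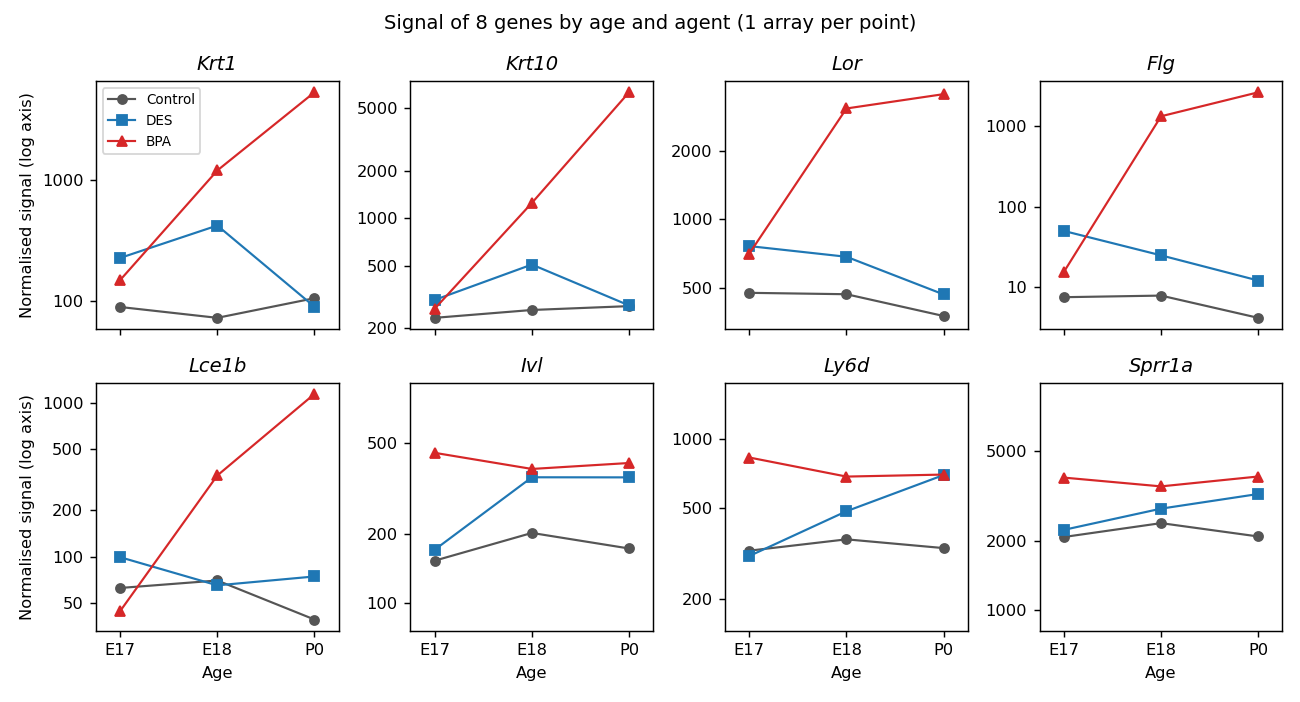
Normalised signal (log axis, scale differing by panel) of 8 genes against age, 1 array per point, with Control in grey, DES in blue and BPA in red. In Krt1, Krt10, Lor, Flg and Lce1b the BPA line is higher at E18 and P0 than at E17, whereas in Ivl, Ly6d and Sprr1a it lies above Control at all 3 ages.

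The other small proline-rich genes were below the level filter. Sprr1b was at 3.80 or less in Control, at 136 on DES E18 alone among the DES arrays, and at 232 on BPA P0. Sprr2d reached 203 on BPA P0 against 7.78 to 46.6 in Control, and Sprr3 ran from 23.4 to 45.4 over all arrays.

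Late cornified envelope genes encode short cysteine-rich and glycine-rich proteins added late to the shell, and all 13 measured were higher with BPA than with Control at E18 and at P0. In the deposited values Lce3b and Lce3c were lower on BPA P0 than on Control P0. The median BPA difference of the 13 genes was -0.06, 2.21 and 3.02 log2 units at the successive ages, and for DES it was 0.22, 0.08 and 0.12. Lce1a1 read 46.1, 43.5 and 49.4 in Control, 53.3, 46.3 and 76.3 with DES, and 44.3, 364 and 915 with BPA. Lce1a2 read 72.2, 80.9 and 94.9 in Control, 126, 72.6 and 113 with DES, and 69.0, 317 and 810.1 with BPA. Lce1b read 62.7, 70.2 and 39.1 in Control, 99.4, 65.2 and 74.5 with DES, and 44.4, 337 and 1142 with BPA. In these 3 genes the BPA E17 value lay inside or below the Control range, and the later 2 BPA arrays were the highest of all.

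Lce1h and Lce1i started from a higher Control signal. Lce1h read 93.3, 98.6 and 172 in Control, 146, 146 and 39.0 with DES, and 208, 523 and 1361 with BPA. Lce1i read 211, 194 and 285 in Control, 239.8, 195 and 238 with DES, and 222, 483 and 1522 with BPA. All 3 BPA arrays of Lce1h lay above Control, and those of Lce1i overlapped Control at E17. Below the filter, Lce1c was at 5.42 or less in Control and at 1108 on BPA P0, Lce1f at 14.6 or less and at 996, Lce1d at 19.9 or less and at 610.1, and Lce1m at 14.3 or less and at 457. Lce1g (115) and Lce1l (56.3) were also highest on BPA P0. The Lce3 genes differed little, Lce3b from 89.3 to 107 in Control and from 82.8 to 122 with BPA, and Lce3c from 17.1 to 20.7 and from 23.4 to 26.6. The chosen probe sets of 7 members, Lce1a1, Lce1d, Lce1h, Lce1i, Lce3b, Lce3c and Casp14, carry the x_at suffix of sets that may cross-hybridise with related transcripts, so values of near-identical Lce genes are not fully separate.

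The corneodesmosome genes encode the junctions that hold the cornified cells together. On the chosen probe sets, 3 of 3 were higher with BPA than with Control at E18 and P0. Cdsn, corneodesmosin, read 75.3, 53.0 and 87.8 in Control, 58.7, 104 and 92.9 with DES, and 69.7, 145 and 384 with BPA. Dsc1, a desmocollin, was at 11.4 or less in Control, at 25.3 on DES E18, and at 67.6 and 419.8 on the later BPA arrays. Dsg1a, a desmoglein, read 13.9 or less in Control and 123 on BPA P0. Both were below the filter.

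The 8 enzymes were the most mixed group. Asprv1, the protease that trims profilaggrin, read 205, 205 and 104 in Control, 180.2, 228 and 145 with DES, and 137, 575 and 1861 with BPA. Its later BPA arrays were the highest of the 9, while BPA E17 lay inside the Control range. Tgm1, the membrane-bound transglutaminase, read 59.5, 57.0 and 39.2 in Control, 61.0, 56.7 and 45.1 with DES, and 56.0, 56.8 and 95.0 with BPA, so BPA P0 was the one BPA array outside the Control range. The kallikreins that cut corneodesmosomes were below the filter, Klk7 at 44.0 or less in Control and 353 on BPA P0, and Klk5 at 16.3 or less and 138. Alox12b, the first lipoxygenase of the lipid coat, was at 1.82 or less in Control and at 34.3 and 51.1 on the later BPA arrays, and Aloxe3, which acts after it, was highest on BPA E18 at 139.5 against 63.9 to 95.1 in Control. Tgm3, another cross-linking enzyme, ran from 35.2 to 79.2 in Control and from 91.0 to 129.7 with BPA. Casp14, the caspase of cornifying cells, ran from 164 to 225 in Control and from 129.7 to 281 with BPA on the chosen set, whereas its other probe set read 157 on BPA P0 and 9.53 or less elsewhere.

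Probe sets of 1 gene did not always read alike. Of the other sets, 1 for Lor read 137 to 250.4 in Control and 1451 and 3709 on the later BPA arrays, and another was nearly level (28.2 to 33.9 in Control, 54.1 and 45.9 on those arrays). The second Ivl set read 6.99 to 8.57 in Control, 21.6, 50.8 and 25.3 with DES and 63.3, 68.5 and 63.2 with BPA, the same order as the chosen one. A second Dsc1 set read 27.5 on BPA E18 and 79.9 on BPA P0, against 29.0 and 10.7 in Control. That of Lce1f read 21.3 and 85.2 there, against 13.2 to 21.3 over Control. For Tgm3 it read 50.7, 38.9 and 112 with BPA, against 55.9 to 61.6 in Control. Other sets of Lce1a1 and Sbsn followed the chosen ones, at 801 (Lce1a1) and 2088 and 401 (Sbsn) on BPA P0.

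Differences between agents were tested with limma over the 13400 genes above the level filter, with agent and age as factors and Benjamini-Hochberg adjustment at 0.05. Of the members, 26 passed the filter. For every contrast that holds the BPA arrays the counts below describe members listed on those arrays and support nothing about them. Flg and Crct1 passed through their BPA E18 and P0 values, and 23 members would have passed on Control arrays alone. Between BPA and Control 0 of the 26 tested members were called (0.0149% of all tested genes were), while 22 had an unadjusted p under 0.05, as did 8.29% of all tested genes. The fitted difference was positive for 42 of 43 members, with a median of 1.62 log2 units against 0.01 over all genes. It was 5.15 ± 1.28 (SE) for Flg, 3.40 ± 0.90 for Krt1, 2.31 ± 0.68 for Krt10 and 2.16 ± 0.45 for Lor. The smallest adjusted p among the members was not that of these genes but of Sprr1a (0.76 ± 0.11, limma adjusted p = 0.153), followed by Ivl (1.22 ± 0.21, adjusted p = 0.254). The large differences vary with age, and this variation enters the error of an agent mean. Without the BPA E17 array 9 members were called, and without DES E17 3 were (Ivl, Ly6d and Sprr1a). Calls over all tested genes also moved when an array was left out. They went from 2 in the full fit to 20 without Control E17, where 0 members were called. The counts of 9 and 3 are therefore not read as particular to the members. Tgm1 differed by 0.36 ± 0.28, and this turned to -0.06 without the BPA E18 and P0 arrays.

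Between DES and Control 0 members were called (0% of all tested genes), with 35 of 43 higher, a median of 0.26 and 2 members, Ivl and Sprr1a, at an unadjusted p under 0.05 (6.37% of all tested genes). Leaving out 1 array moved this median between -0.08 (without DES E17) and 0.66 (without Control E17), so its direction rests on single arrays. It was -0.04 without Control P0 and 0.57 without DES P0. The direct difference of BPA and DES also rests on the BPA values behind the listing, so it is a description: it was positive for 42 of 43 members with a median of 1.34. In it 0 members were called (0% of all tested genes), and 18 of the 26 tested had an unadjusted p under 0.05 (7.81% of all tested genes). Without the BPA E17 array 5 members were called, a count given without the share over all genes and so not read as particular to them. Over the 3 agents together, P0 against E17 gave 40 of 43 members higher, a median of 1.08 and 0 calls (0.619% of all tested genes were called), and 9 members had an unadjusted p under 0.05 (19.2%). E18 against E17 had a median of 0.67 with 0 calls (0% of all tested genes) and P0 against E18 a median of 0.24 with 0 calls (0% of all tested genes). An unadjusted p under 0.05 was found for 0 members (3.19% of all tested genes) and 1 member (14.3%) in these 2 contrasts.

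Taken by agent, the age differences lay mainly in the BPA arrays. From E17 to P0 the members differed by a median of 0.08 log2 units in Control, -0.09 with DES and 2.93 with BPA. Within BPA, 39 of 43 were higher at E18 than at E17 (median 1.55) and 42 of 43 higher at P0 than at E18 (median 1.34). A fit with a straight line over age within every agent, counting E17, E18 and P0 as equal steps, gave the change of the BPA difference per step, and 6 members were called higher (0.0522% of all tested genes, 7 in all). Asprv1 had 2.33 ± 0.22 log2 units per step (SE, limma adjusted p = 0.0167), Lce1b 2.57 ± 0.28 (adjusted p = 0.0178), Krt10 2.15 ± 0.24 (adjusted p = 0.0178), Kprp 1.79 ± 0.22 (adjusted p = 0.0281), Crct1 2.64 ± 0.33 (adjusted p = 0.0281) and Dmkn 2.20 ± 0.29 (adjusted p = 0.0432). The slope draws on the same BPA arrays as the listing of the members, so these calls are a description. Crct1 passed the filter only through BPA E18 and P0 and so had to differ there. Krt1 (2.43 ± 0.44, adjusted p = 0.196) and Flg (3.71 ± 0.71, adjusted p = 0.221) had similar or larger slopes with larger errors. The count fell to 0 without Control E17, Control P0 or BPA E17, was 2 without BPA P0, and was 10 without BPA E18. These leave-out counts are of members alone, without the share over all genes, and are not read as particular to the members. For DES, 21 members had a positive and 22 a negative slope with a median of -0.05, and 0 were called (0% of all tested genes), though 4 had an unadjusted p under 0.05 (7.46%).

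Other gene groups of cornifying epithelium differed far less in their medians. The members were listed for high values after BPA on these arrays, so their higher median follows from that choice and is a description. Of the other lists, 11 of 19 desquamation genes and 9 of 17 genes of the complex passed the level filter. Genes of the cornified lipid barrier (18 measured) had a median BPA difference of 0.21, desquamation proteases and inhibitors (19) 0.18, other genes of the epidermal differentiation complex (17) 0.15, desmosome genes (11) 0.20 and differentiation regulators (21) 0.01, and limma called 0 genes of any of these lists between BPA and Control or between DES and Control. Single genes of these lists did share the late BPA pattern. On BPA P0, 7 of 19 desquamation genes and 3 of 18 lipid barrier genes were at least 1 log2 unit above Control P0. The same held for 3 of 17 genes of the complex, 2 of 11 desmosome genes and 5.16% of all genes. Serpinb12, a protease inhibitor of epidermis in the desquamation list, read 7.46 or less in Control, 49.6 on BPA E18 and 283 on BPA P0. The regulator Klf4 read 652 to 1165 in Control and 836 to 955 with BPA. Grhl3, a regulator of the epidermal barrier, read 357, 223 and 151 in Control and 266, 226 and 333 with BPA, so its ranges overlapped while BPA lay above Control by 1.11 log2 units at P0. It was 1 of 2 regulators past 1 log2 unit at that age. These genes, and those named from the mucosal list below, were picked for mention after their values were seen.

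Markers of other cells in skin and of neighbouring epithelia give the setting of these values. Basal keratinocyte genes, several of which urogenital epithelium also expresses, had a median BPA difference of -0.01 (6 of 12 higher), with a summed signal of 7587 to 10177 in Control, 8473 to 9618 with DES and 8175 to 9320.1 with BPA. Krt5 read 575 to 986 in Control and 718 to 1106 with BPA, and Krt14 204 to 295 and 216 to 384. Hair follicle genes had a summed signal of 1101 to 1124 in Control, 1122 to 1217 with DES and 1095 to 1165 with BPA (12 of 25 higher), with Hoxc13 at 5.28 or less on every array. Melanocyte genes summed to 464 to 625 in Control, 457 to 689.7 with DES and 501 to 619 with BPA (4 of 10 higher), and Mlana stayed at 17.3 or less. The members were higher on BPA E18 and P0, and the sums of the basal, follicle and pigment cell lists lay within or near their Control ranges. On the P0 arrays the basal sum was 8456 with BPA and 7587 in Control. Of the 25 follicle genes, 6 passed the level filter. Which cells gave the signal of the members was not tested. Genes of mucosal squamous epithelium had a median of 0.19 (11 of 16 higher), and 4 of 16 were past 1 log2 unit above Control on BPA P0. Krt4, a mucosal keratin, read 1373 to 1964 in Control and 1424 to 1556 with BPA. On the P0 arrays Krt6b read 161 with BPA and 4.87 in Control, Krt78 read 241 and 69.5, and Krt16 read 75.4 and 34.1. Krt6b and Krt16 were higher still on DES E18, at 259 and 108. Cnfn, cornifelin, an envelope component placed in this list, read 49.0 to 90.0 in Control, 173 on BPA E18 and 284 on BPA P0.

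Urothelium genes read differently from most members and, at E17 and E18, more like Ivl, Ly6d and Sprr1a. All 10 were higher after BPA, with a median of 0.48, and 9 of 10 were higher after DES, with a median of 0.34, though limma called 0 in either comparison. Their summed signal was 5308 to 5958 in Control, 6146 to 8100.5 with DES and 7040.0 to 9466 with BPA, highest on BPA E17. By age their median BPA difference was 0.69, 0.64 and 0.10 log2 units, with 7 of 10 higher at P0. At P0 Ivl, Ly6d and Sprr1a remained 1.22, 1.06 and 0.87 log2 units above Control. Upk1b, a uroplakin of the bladder surface, read 1500.4, 1330 and 1586 in Control, 1566, 1993 and 2290.1 with DES, and 2360, 1994 and 2013 with BPA. The part of urothelium in the values of Ivl, Ly6d and Sprr1a was not tested. Skeletal muscle genes were lower after BPA (15 of 18, median -0.56) and smooth muscle genes higher (12 of 12, median 0.66), with 0 called in either list.

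**Figure D4:**
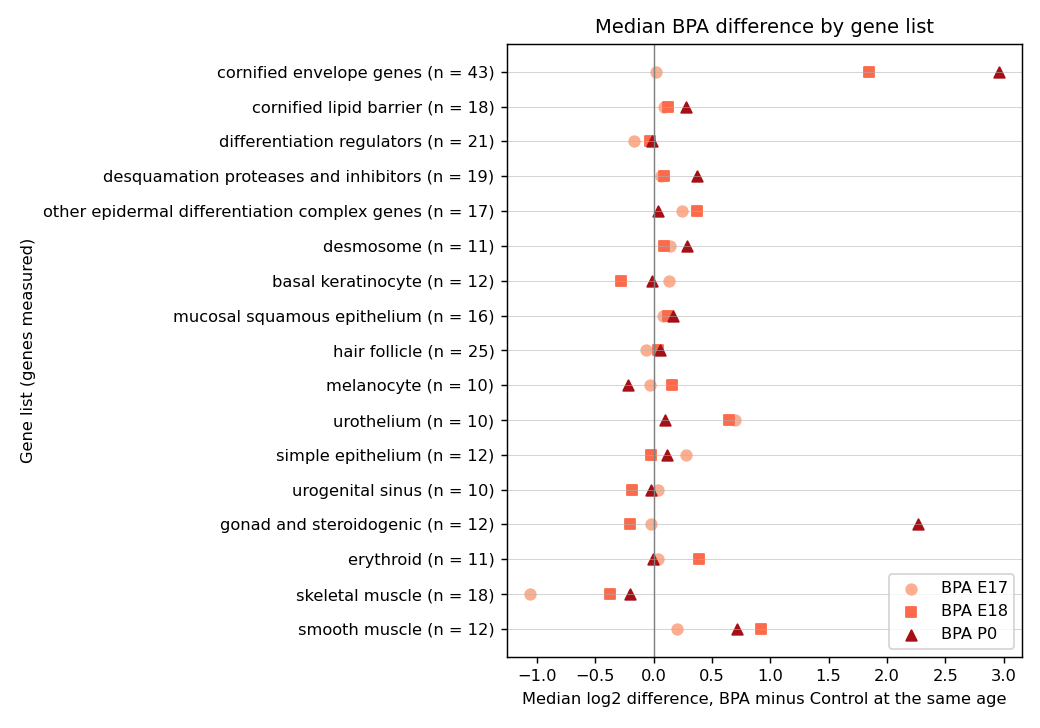
Median log2 difference of the BPA array from the Control array of the same age (horizontal axis) for the cornified envelope genes and 16 other gene lists (rows, with the number of genes measured), at E17, E18 and P0. The cornified envelope genes reach 1.85 and 2.96 at E18 and P0, and the gonad list reaches 2.26 at P0 alone. The cornified envelope genes were listed for high values after BPA on these arrays, so their place is a description.

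Members differed in how closely they followed the others. Over the 9 arrays, which share agents and ages, Pearson's r of a gene's log2 values with the mean of the other tested members was 0.99 for Crct1, 0.99 for Krt10 and 0.98 for Dmkn, and it was 0.53 for Ivl, 0.50 for Ly6d, 0.64 for Sprr1a, 0.40 for Aloxe3 and 0.25 for Krt2. Outside the members, the tested genes most like their mean profile by the same measure were Stfa3, a stefin protease inhibitor (r = 0.98), Sftpc (0.98), Glo1 (0.96), Calm4, a calmodulin-like protein of epidermis (0.96), Pof1b (0.95) and Clic3 (0.95). Calm4 read 18.2, 4.74 and 29.0 in Control, 71.4, 151 and 39.3 with DES, and 35.9, 657 and 3016 with BPA. Stfa3 read 55.0, 55.5 and 91.2 in Control, 109, 181 and 65.0 with DES, and 101, 470.5 and 1728 with BPA. Glo1, glyoxalase, matched in shape with a far smaller range, from 1051 to 1280.5 over all arrays.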

How the data were processed

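Total RNA of 9 urogenital sinus samples was hybridised to Affymetrix arrays, 1 array for each of 3 agents at 3 ages. The authors' deposited values are linear probe set intensities made with MAS5, per the submitters' processing notes; its version is not given in the sources used here, and detection calls were not used. From the 45101 probe sets, 34958 annotated to 1 symbol gave 18194 genes, each taken at the probe set of highest mean log2 value. Values were quantile-normalised and taken as log2(signal + 5.46), the 10th percentile, so differences of dim genes are understated. Genes at or above the 40th percentile (5.54) were tested, 13400 in all, with limma 3.58.1 in R 4.3.3 (intensity trend), all 9 arrays in 1 fit. The agent and age fit had 4 residual and 6.18 prior degrees of freedom, and the slope fit 3 and 6.89. Scripts were tested on simulated data. Motifs were searched in RefSeq promoters, listed for 35 of the 44 symbols. Values on all arrays are given for tested members at least 2 times the highest Control array on a BPA array, and for Ivl, Tgm1, Lor, Krt1, Krt10 and Flg. The members and the gene lists were chosen with earlier results of these data known. Alternatives covered scaling, pseudocount, filter, probe set choice, the trend, the age term and leaving out arrays. The number of arrays limits the precision. No pair of arrays held identical values.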

Additional observations from a re-analysis of the deposited data

Results flagged for a closer look

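The change of the BPA difference per age step passed the threshold for 6 members (limma, 1 array at each age and agent, adjusted over 13400 genes). The members were listed for high values on these same BPA arrays, so this is a description, and Crct1 passed the level filter only through BPA E18 and P0. The change was 2.15 log2 units per step for Krt10, 2.33 for Asprv1, 2.64 for Crct1, 1.79 for Kprp, 2.57 for Lce1b and 2.20 for Dmkn. In each the BPA array read lower at E17 than at E18 and lower at E18 than at P0. The count was 0 with no filter, without the intensity trend, and without Control E17, Control P0 or BPA E17.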

How the results depend on the processing

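With values left as deposited, which shifts the median of all genes by -0.21 log2 units between BPA and Control, the members' median relative to all genes was 1.59 (1.61 after quantile normalisation), and 16 members were called between BPA and Control, 10 between BPA and DES, 4 between P0 and E17, 14 for the BPA change per age step and 1 for the DES change per step. Over all tested genes, 62, 105, 723, 269 and 27 were called in that setting, in the same order, so calls rose widely. Prior degrees of freedom there rose from 6.18 to 44.5 in the agent fit. Averaging all probe sets of a gene gave 1 member call between BPA and Control (Ivl), and 2 calls over all tested genes. The BPA change per step gave 6 calls, and gave 0 with no filter, 3 with a stricter filter and 0 without the intensity trend. Over all tested genes these counts were 7, 0, 4 and 0. With age as a factor beside the slopes, an alternative chosen after seeing the data, the BPA change per step gave 7 member calls. Leaving out each array in turn gave 0 to 9 calls between BPA and Control, 0 to 5 between BPA and DES, 0 to 2 between P0 and E17 (2 without DES P0) and 0 to 10 for the BPA change per step, and moved the DES median between -0.085 and 0.66. These leave-out counts are of members alone. Over all tested genes, calls between BPA and Control moved too, from 2 to 20 without Control E17, where 0 members were called. Without BPA E18 and P0 the BPA median was 0.13. Tgm1 turned to -0.063 without those arrays and to -0.016 without BPA P0, with 0.57 the highest value over its alternatives. The cause of these changes was not tested. Of 18 alternatives, the count of members called between DES and Control was 0 in all. The labels carry no replicate numbers, and arrays were paired by age alone, through the age term of the agent fits. Without that pairing (no age term) 0 members were called between BPA and Control, DES and Control, or BPA and DES, as with it.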
